A study of Apostichopus japonicus with 12 samples.

Results

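The extracellular matrix genes of the sea cucumber intestine were described across 4 temperature groups. The 193 gene models, of 30221 in the deposited table, were those whose description held a word for collagen, laminin, fibronectin, perlecan or heparan sulfate proteoglycan, nidogen, fibrillin, fibulin, fibropellin, thrombospondin, agrin, matrilin or SPARC. Descriptions that held ADAMTS, disintegrin, tenascin, fibrinogen, collagenase or receptor were left out, and no model was described as a matrilin. The rule reads words only, but it was written with earlier results of these data known and takes in the perlecan model called below. It also took in 3 enzymes or carriers that are not matrix proteins. Some other models only share a domain name with a matrix protein, such as fibronectin type 3 and ankyrin repeat proteins.

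RNA was sequenced from the intestine of Apostichopus japonicus, a bottom-feeding echinoderm farmed for food, in 12 animals of around 100 g, each giving its own library. In 3 animals the water was warmed by 2 °C per hour to 30 °C and the gut was taken 6 h after that temperature was reached. In 3 animals each, the water was brought to 26 °C in the same way and the gut was taken after 48 h or after 6 h. The 3 controls stayed at 18 °C. The labels give the controls no time, a single set of controls stands against every heated group, and the 30 °C animals had gone through a longer warming before their 6 h began. The intestine was sequenced whole, so fewer cells of a type and less RNA per cell cannot be told apart.

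Between 1788303 and 3956056 reads on genes per library, and 12887 to 19887 genes detected, stood behind the values. Values are the authors' FPKM, fragments per kilobase of gene times a factor for each library, and their sum per library ran from 562397 to 3014690. That factor did not follow the reads on genes. FPKM times length per read came to 561, 462 and 687 in the 30 °C libraries and 389, 276 and 131 in controls. The reads on genes in 30 °C animal 3 and control 3 were 3182338 and 3713358. Differences between groups in the FPKM as deposited carry that factor. Digestive enzyme and brush border genes held reads in every group, but with no other tissue in the series this cannot test the labelled tissue. Their 128 models took from 0.121% to 0.454% of the reads at 30 °C, 0.173% to 0.678% at 26 °C for 48 h, 0.130% to 0.642% at 26 °C for 6 h and 0.229% to 0.493% in controls. The fewest genes were detected in 26 °C 6 h animal 1 and in 30 °C animal 3, and results that move without these libraries are given both ways. Small heat shock protein 26 and heat shock protein 70 genes, 17 models, took between 9.85% and 30.9% of the reads in the 30 °C libraries. They took between 0.00408% and 4.30% in the other libraries.

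The extracellular matrix is the protein scaffold around cells. In the gut of animals a thin sheet, the basement membrane, lies under the epithelium and around muscle. It is built of laminin trimers and a network of type IV collagen, linked by nidogen and perlecan, a large heparan sulfate proteoglycan. Deeper connective tissue holds fibrillar collagens, which form ropes, and fibrillin microfibrils. Sea cucumbers are known for connective tissue whose stiffness they can change within short times, and for shedding and regrowing the gut.

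The 193 models lay on 129 scaffolds of the deposited assembly and 82 of them lay next to another of the set, in 47 neighbouring pairs. Many are short and share a description, so several can be pieces of a single gene. Of the 193, 118 reached 0.5 FPKM on average across the 12 libraries and were tested. Another 52 fell below that and 23 had no read in any library. The closest model under the limit was BSL78_06701 at 0.468 FPKM and the closest above it was BSL78_21428 at 0.544 FPKM. The tested models held a median of 193.5 reads over all 12 libraries, and 44 of them held under 100 reads, which limits what any test of them can show.

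By class, 10 models were fibrillar collagens (6 tested), 4 were type IV collagens (3 tested) and 39 were other collagens (28 tested). There were 24 laminins (20 tested), 12 perlecan and agrin models (9 tested) and 3 models with a nidogen word (2 tested). Only 1 of these 3 was counted as a nidogen proper, and it was tested. The largest class was the fibrillins, fibulins and fibropellins, with 65 models of which 30 were tested. Thrombospondin words counted 16 (8 tested), SPARC with its relative SMOC 2 (both tested) and fibronectin words 15 (7 tested). Of the 16 thrombospondin models, 8 (6 tested) were proteins named for a thrombospondin type-1 domain. The 3 enzymes and carriers were all tested.

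As a whole the 193 models took 0.776% ± 0.119 of the reads on genes at 30 °C, 1.28% ± 0.375 after 48 h at 26 °C, 0.587% ± 0.264 after 6 h at 26 °C and 0.556% ± 0.0774 in controls (SD, n = 3 each). The 30 °C libraries ranged from 0.640% to 0.859%, the 48 h libraries from 0.902% to 1.65%, the 26 °C 6 h libraries from 0.300% to 0.818% and the controls from 0.469% to 0.618%. The 30 °C and the 48 h libraries all lay above every control, and the 26 °C 6 h libraries overlapped the controls. No test was made on these sums. The share of the FPKM sum weights short genes more. Its means were 0.715% at 30 °C, 0.895% after 48 h, 0.596% after 6 h at 26 °C and 0.415% in controls. The 26 °C 6 h animals, at 0.803%, 0.681% and 0.303%, overlapped the controls in that share too. By that share 30 °C animal 1, at 0.423%, lay below 2 of the controls, at 0.451% and 0.498%, while all 48 h animals stayed above every control.

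**Figure D1:**
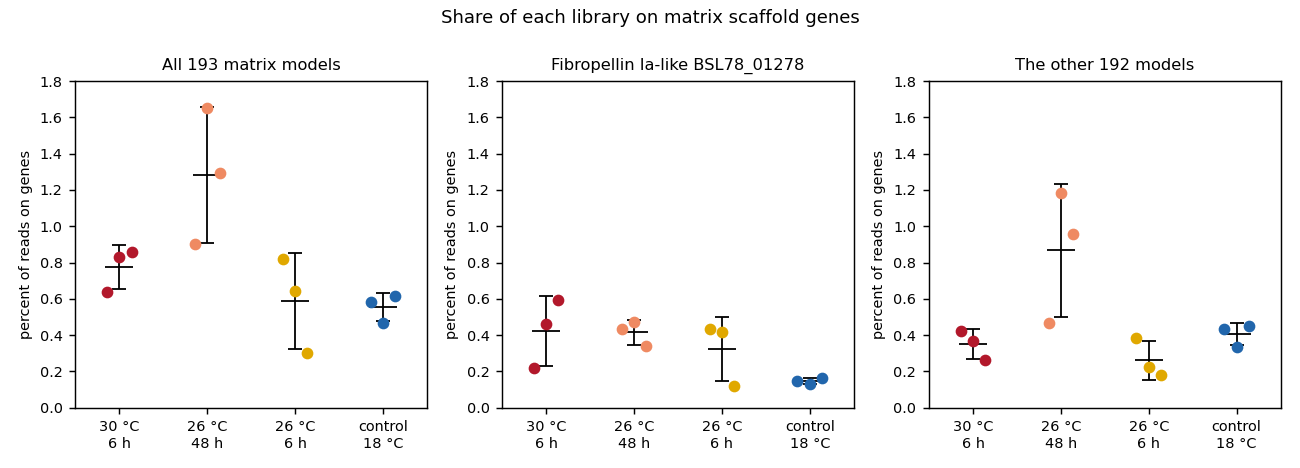
Percent of each library's reads on genes that fell on all 193 matrix models, on the fibropellin Ia-like model BSL78_01278 and on the other 192 models, with 1 point per animal and bars for the mean and SD of 3 animals. The other 192 models averaged 0.352% at 30 °C, 0.867% after 48 h at 26 °C, 0.262% after 6 h at 26 °C and 0.407% in controls, so the higher total at 30 °C lay on a single model.

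A single model carried much of this. BSL78_01278, described as fibropellin Ia-like, took between 25.3% and 69.2% of the reads of the set in a library, and the 5 highest models together took between 47.2% and 90.4%. Fibropellins are EGF-repeat proteins, known from sea urchin embryos, where they form the apical lamina. BSL78_01278 lies on scaffold MRZV01000024.1 (948690 to 951469, plus strand, gene model length 600). It stood at 5389, 14096 and 21674 FPKM at 30 °C and 6843, 4516 and 2595 FPKM after 48 h at 26 °C. After 6 h at 26 °C it stood at 8123, 6245 and 1857 FPKM, and in controls at 2958, 1620.5 and 1352 FPKM. In the FPKM as deposited all 30 °C animals lay above all controls, whereas both 26 °C groups overlapped them. BSL78_01278 also had all 48 h animals above all controls with a common sum per library. Its change at 30 °C against control did not pass the test (log2 change 2.66, SE 0.71, adjusted p = 0.156).

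Each gene was tested with limma on log2(FPKM + 1), with p-values adjusted by the Benjamini-Hochberg method over all 18729 tested genes and a threshold of 0.05. At 30 °C against control, 0 of 118 tested matrix models rose and 0 fell, where 0.587% of all tested genes rose and 0.0641% fell. At 26 °C after 6 h against control it was 0 and 0, with 0.0481% and 0.016% of all genes. At 26 °C after 48 h against control it was 0 and 0, and also 0% of all genes in each direction. Between 30 °C and 26 °C at 6 h, 0 rose and 1 fell (0.198% and 0.0481% of all genes), and between 48 h and 6 h at 26 °C 0 rose and 0 fell (0% and 0.0107%). The F test over the 4 groups called 1 model, where it called 0.555% of all genes. The 1 call of 118 is 0.847%, and neither it nor the counts of 0 are read as particular to the matrix set.

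At an unadjusted p under 0.05, limma counted 15 of the 118 at 30 °C against control (10.4% of all genes), 9 at 48 h (4.55%) and 7 at 6 h (8.06%) of 26 °C. It counted 16 between 30 °C and 26 °C at 6 h (11.7% of all genes), 14 between 48 h and 6 h at 26 °C (7.01%) and 21 in the F test (10.4%). These numbers describe how many models leaned away from 0 and are not calls.

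The 1 model called was BSL78_17848, described as a basement membrane-specific heparan sulfate proteoglycan core protein, the name of perlecan (scaffold MRZV01000721.1, 26359 to 29953, minus strand). It stood at 0, 0 and 0 FPKM at 30 °C, at 5.25, 4.32 and 8.75 FPKM after 48 h at 26 °C, at 11.7, 8.52 and 3.58 FPKM after 6 h at 26 °C and at 2.33, 1.65 and 0.786 FPKM in controls. No read fell on it in any 30 °C animal, and the 3 groups that held reads were ordered with all 26 °C animals above all controls. The reads behind these values were 0, 0 and 0 at 30 °C, 5, 11 and 25 after 48 h, 11, 11 and 7 after 6 h at 26 °C, and 3, 3 and 3 in controls.

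BSL78_17848 fell at 30 °C against 26 °C at 6 h (log2 change -3.04, SE 0.54, adjusted p = 0.0419; F test adjusted p = 0.0463, limma). With a floor of 3 reads in each 30 °C library, which averages 3.41 FPKM, it was at least 2.33-fold lower than at 26 °C. Against control the 30 °C level cannot be given a fold, because the control mean of 1.59 FPKM is under that floor; limma gave log2 change -1.33, SE 0.54, adjusted p = 0.404. The 26 °C groups against control did not pass either (log2 change 1.71, SE 0.54, adjusted p = 0.4 after 6 h and log2 change 1.45, SE 0.54, adjusted p = 1 after 48 h). The call rests on 29 reads in 3 libraries and was kept in only 2 of the 12 fits that left out a library, those without 26 °C 6 h animal 3 or 30 °C animal 3. Without any other library the adjusted p lay between 0.0619 and 0.142, and without both libraries with the fewest genes it was 0.111.

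The neighbouring model BSL78_17847, of the same description and strand, starts at 1546 and ends at 26304, 54 bases away, and is 3474 long. It stood at 4.52, 6.64 and 0.989 FPKM at 30 °C, 10.7, 13.7 and 19.6 FPKM after 48 h at 26 °C, 6, 1.56 and 9.36 FPKM after 6 h at 26 °C and 3.13, 7.95 and 4.73 FPKM in controls. Here the 30 °C animals held reads and overlapped both the 26 °C 6 h animals and the controls, whereas all 48 h animals lay above all others. Its change at 30 °C against 26 °C at 6 h was small beside its error (log2 change -0.38, SE 0.67, adjusted p = 0.863). The longer model held 83 reads over the 3 animals at 30 °C, where BSL78_17848 held 0. Whether they are pieces of 1 gene was not tested.

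**Figure D2:**
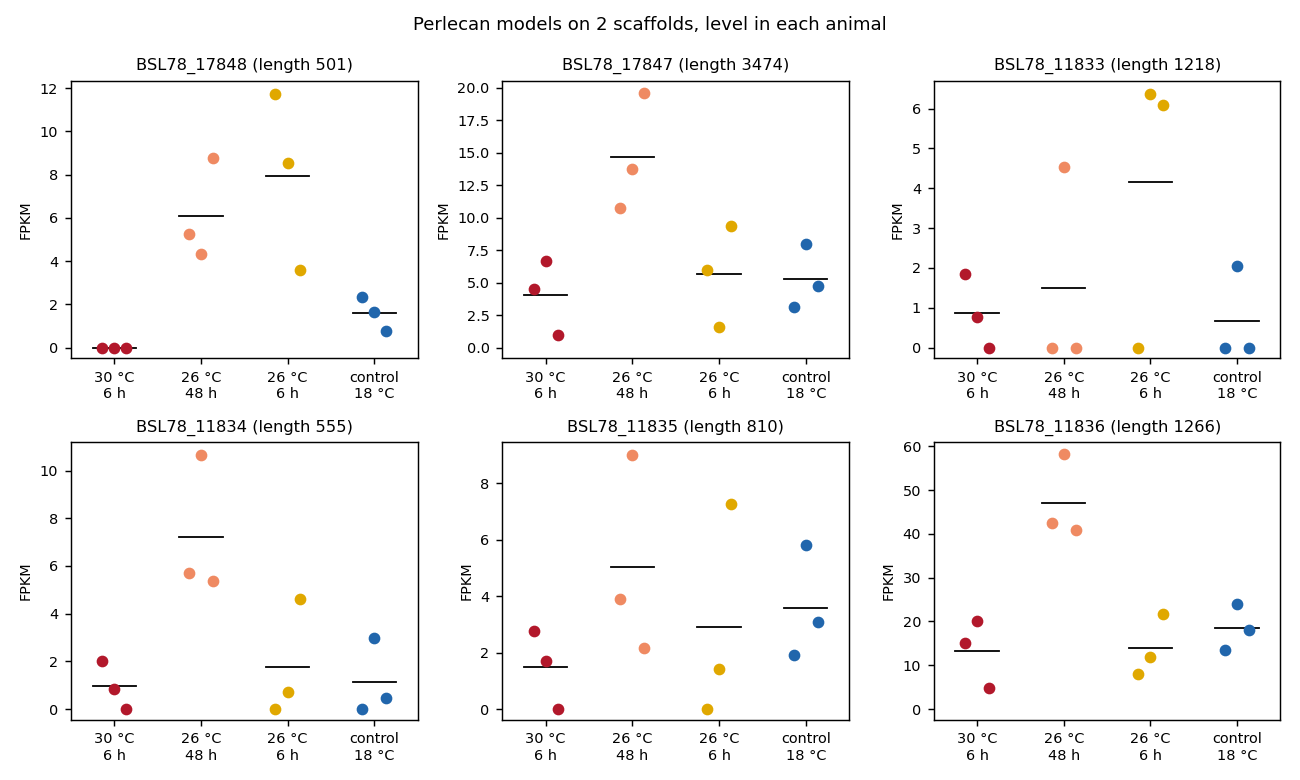
FPKM of 6 of the 7 perlecan models in each animal, with 1 point per animal and a line at the mean of each group of 3. BSL78_17848 holds no read at 30 °C while its longer neighbour BSL78_17847 does, and BSL78_17847, BSL78_11834 and BSL78_11836 have all 48 h animals above all others, which does not hold in any of the 3 with a common sum per library.

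All 7 perlecan models were tested. Against 26 °C at 6 h, 6 of 7 were lower at 30 °C, with a median log2 change of -0.33. After 48 h at 26 °C, 6 of 7 were higher than in controls, with a median of 1.32. The most abundant of them, BSL78_11836 on scaffold MRZV01000381.1, stood at 15.1, 20.1 and 4.88 FPKM at 30 °C, 42.4, 58.2 and 40.9 FPKM after 48 h at 26 °C, 8.02, 12 and 21.6 FPKM after 6 h at 26 °C and 13.5, 24 and 17.9 FPKM in controls. All 48 h animals lay above all other animals. The change between 48 h and 6 h at 26 °C did not pass the test (log2 change 1.78, SE 0.60, adjusted p = 0.545).

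Beside BSL78_11836 on the same scaffold, BSL78_11834 stood at 2.02, 0.832 and 0 FPKM at 30 °C, 5.69, 10.6 and 5.37 FPKM after 48 h, 0, 0.699 and 4.61 FPKM after 6 h at 26 °C and 0, 2.99 and 0.473 FPKM in controls. Again all 48 h animals lay above all others, on 6, 30 and 17 reads (log2 change 2.13, SE 0.74, adjusted p = 0.969 for 48 h against control). Agrin, a related proteoglycan known for clustering receptors at vertebrate nerve-muscle contacts, had 5 models of which 2 were tested. Neither passed in any comparison.

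Laminins are the trimers on which a basement membrane assembles, each made of an alpha, a beta and a gamma chain. After 6 h at 26 °C, 17 of the 20 tested laminins were lower than in controls, with a median log2 change of -0.44 against -0.08 over all genes. At 30 °C 15 of 20 were higher than in controls, with a median of 0.26, and 19 of 20 were higher than at 26 °C at 6 h. All 5 tested beta chains and all 6 gamma chains were lower after 6 h at 26 °C than in controls. None of these laminins passed the test in any comparison. With FPKM rescaled to a common sum per library, 3 of 20 were above 0 at 30 °C against control, and 12 of 20 lay above the median of all genes; 13 of 20 were above 0 at 30 °C against 26 °C at 6 h. All 5 beta and all 6 gamma chains stayed lower after 6 h at 26 °C than in controls with a common sum. With quantile normalization 13 of 20 laminins, 4 of the 5 beta chains and all 6 gamma chains were lower there. Quantile normalization gave all 5 beta chains and 3 of 6 gamma chains above 0 at 30 °C against control. Against 26 °C at 6 h it gave all 5 beta and all 6 gamma chains above 0.

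The laminin model with the most reads per length, the gamma-1-like BSL78_21651, stood at 43.8, 76.1 and 12.1 FPKM at 30 °C, 24, 68.9 and 89.2 FPKM after 48 h at 26 °C, 18.8, 18 and 39.5 FPKM after 6 h at 26 °C and 16.7, 30.3 and 41 FPKM in controls. The groups overlapped throughout, and 30 °C animal 3 and 48 h animal 1 were low in their groups. Its change after 48 h against control did not pass the test (log2 change 0.92, SE 0.73, adjusted p = 1).

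Type IV collagen forms the network of the basement membrane and nidogen links it to laminin. The alpha-5(IV)-like BSL78_20847 stood at 71.5, 51.8 and 22.4 FPKM at 30 °C, 109.9, 77.1 and 91.2 FPKM after 48 h at 26 °C, 18, 19.8 and 25.1 FPKM after 6 h at 26 °C and 26.9, 42.8 and 107 FPKM in controls. All 26 °C 6 h animals lay below all controls and below all 48 h animals, but neither difference passed the test (log2 change -1.23, SE 0.61, adjusted p = 0.645 against control, log2 change 2.09, SE 0.61, adjusted p = 0.505 for 48 h against 6 h). All 3 tested type IV collagens were higher after 48 h than in controls, by a median of 0.86. Nidogen-1 (BSL78_06905) held 3, 0 and 0 reads at 30 °C, 1, 13 and 15 after 48 h, 0, 0 and 1 after 6 h at 26 °C and 2, 1 and 2 in controls. All 26 °C 6 h animals lay below all controls and below all 48 h animals, on these few reads, and neither difference passed the test (log2 change -0.70, SE 0.69, adjusted p = 0.852 against control, log2 change 1.96, SE 0.69, adjusted p = 0.57 for 48 h against 6 h).

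Fibrillar collagens make up the ropes of connective tissue. The most abundant of them was BSL78_02383, described as collagen alpha-1(I) (scaffold MRZV01000050.1, 520911 to 530983, minus strand). It stood at 1222, 1036 and 1193 FPKM at 30 °C, 462, 1219 and 748 FPKM after 48 h at 26 °C, 699.9, 381 and 249.6 FPKM after 6 h at 26 °C and 491, 354 and 165 FPKM in controls. The 30 °C animals were close together and above all controls and all 26 °C 6 h animals, whereas the 48 h animals overlapped them. Neither comparison passed (log2 change 1.90, SE 0.60, adjusted p = 0.256 against control, log2 change 1.50, SE 0.60, adjusted p = 0.348 against 26 °C at 6 h).

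On the same scaffold and strand lay 4 more collagen models between 558418 and 630873. BSL78_02388, an alpha-2 collagen, stood at 377, 258 and 107 FPKM at 30 °C, 69.9, 379 and 256 FPKM after 48 h, 183, 46.6 and 35.1 FPKM after 6 h at 26 °C and 60.0, 118 and 37.8 FPKM in controls, and its groups overlapped. It held 10475 and 7927 reads in 48 h animals 2 and 3, and at most 3655 in any other library. Of the 6 tested fibrillar collagens, 5 were higher at 30 °C and 5 after 48 h than in controls, and all 6 were higher in each of these groups than at 26 °C at 6 h. Rescaled to a common sum per library, 2 of 6 were above 0 at 30 °C against control and 4 of 6 at 30 °C against 26 °C at 6 h. The 48 h counts were the same in that scaling, and none passed the test.

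Among the other collagens are short-chain collagens of a kind first named from sponges, and relatives of the vertebrate type VI and IX chains. At 30 °C against control 22 of 28 were higher, with a median log2 change of 0.95, where the median over all genes was -0.07. With a common sum per library 14 of 28 were above 0, and again 22 of 28 lay above the median of all genes. The short-chain collagen C4-like BSL78_05260 stood at 82.1, 121 and 5.59 FPKM at 30 °C, 1.83, 0.458 and 0 FPKM after 48 h at 26 °C, 0, 0 and 0.297 FPKM after 6 h at 26 °C and 0, 0 and 5.03 FPKM in controls. The values were high in 30 °C animals 1 and 2 and at or near 0 in most others, and the lowest 30 °C animal lay just above the highest control.

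BSL78_05260 came closest to a call without passing, with log2 change 4.48, SE 0.99, adjusted p = 0.066 against control and log2 change 5.22, SE 0.99, adjusted p = 0.0537 against 26 °C at 6 h. Without 30 °C animal 3 the adjusted p was 0.0028 against control and 0.00231 against 26 °C at 6 h, and without both libraries with the fewest genes it was 0.00708 and 0.0147. The collagen alpha-3(VI) model BSL78_03902 stood at 23.8, 16.3 and 14.6 FPKM at 30 °C, 5.58, 0 and 0 FPKM after 48 h, 0, 1.37 and 0 FPKM after 6 h at 26 °C and 2.75, 0 and 2.32 FPKM in controls. All 30 °C animals were above all others, on only 12, 10 and 6 reads, with log2 change 3.82, SE 0.78, adjusted p = 0.0644 against 26 °C at 6 h. Leaving out 48 h animal 1 brought that adjusted p to 0.0481.

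Some collagens were high after 48 h instead. The short-chain collagen C4 BSL78_22096 stood at 0, 9.31 and 12.9 FPKM at 30 °C, 35.3, 14 and 8.72 FPKM after 48 h at 26 °C, 0, 0 and 2.07 FPKM after 6 h at 26 °C and 0, 5.2 and 2.65 FPKM in controls. All 48 h animals lay above all controls and all 26 °C 6 h animals, while 30 °C was mixed; the difference between 48 h and 6 h did not pass (log2 change 3.59, SE 0.99, adjusted p = 0.486). The alpha-1 collagen BSL78_17628 was high instead after 6 h at 26 °C, at 26.2, 12 and 39.1 FPKM, against 11.4, 6.58 and 8.46 FPKM in controls, with no overlap (log2 change 1.33, SE 0.65, adjusted p = 0.635). With a common sum per library these groups overlapped. Short-chain collagen BSL78_24978, the second most abundant model of the set, stood at 2535, 164 and 191 FPKM within the controls alone, and no group stood apart.

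**Figure D3:**
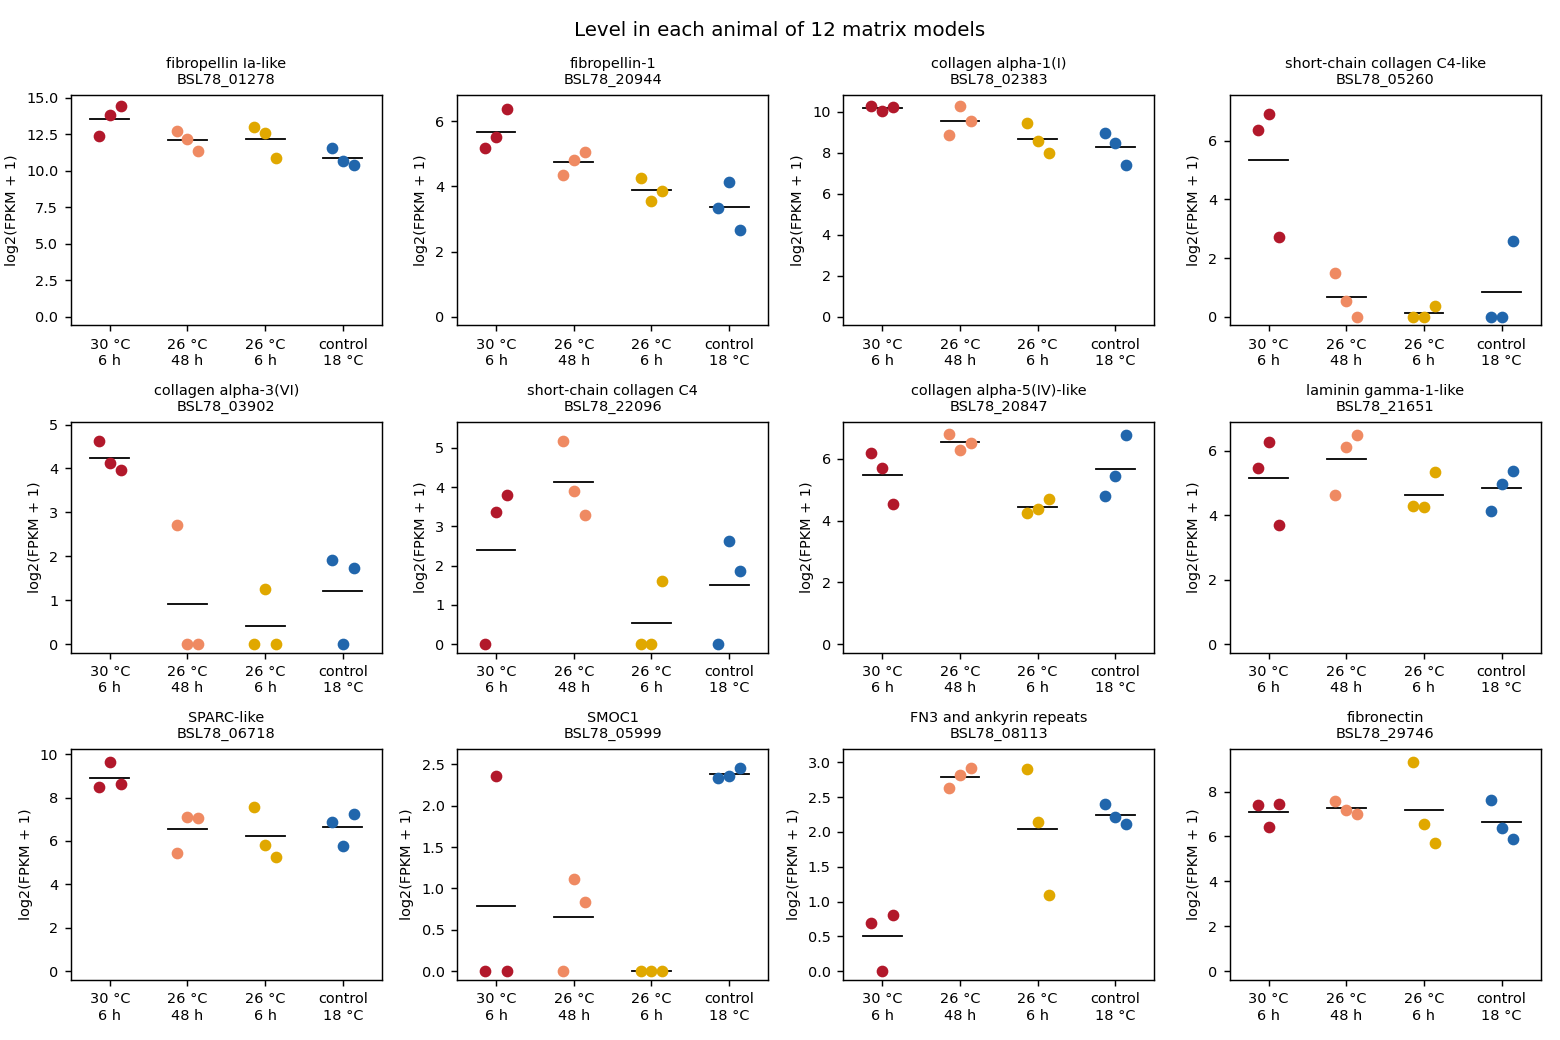
Log2(FPKM + 1) of 12 matrix models in each animal, with 1 point per animal and a line at the mean of each group of 3. All 30 °C animals lie above all controls in BSL78_01278, BSL78_20944, BSL78_02383, BSL78_05260, BSL78_03902 and BSL78_06718, and below them in BSL78_08113. With a common sum per library BSL78_05260 and BSL78_06718 overlap the controls, and BSL78_29746 and BSL78_05999 lie below them.

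Fibrillins build elastic microfibrils and fibulins bind to them; many of the models are named only from EGF repeats. Of the 30 tested, 19 were higher at 30 °C than in controls, 13 at 48 h and 16 at 6 h of 26 °C. These counts were 10, 15 and 11 of 30 with a common sum per library, so the majority turned at 30 °C and at 6 h of 26 °C. Fibropellin-1 BSL78_20944 stood at 35, 44.8 and 81.2 FPKM at 30 °C, 19.4, 27 and 32.6 FPKM after 48 h, 17.9, 10.6 and 13.5 FPKM after 6 h at 26 °C and 9.07, 16.5 and 5.32 FPKM in controls. The 30 °C animals lay above all others and the 48 h animals above all controls. The change at 30 °C did not pass (log2 change 2.31, SE 0.56, adjusted p = 0.101), though limma's voom on the reads recovered from the FPKM steps gave an adjusted p of 0.0489.

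SPARC is a small collagen-binding protein of matrix that is being laid down or remodelled. The SPARC-like BSL78_06718 stood at 354, 786 and 396 FPKM at 30 °C, 43.2, 135 and 134 FPKM after 48 h at 26 °C, 191, 55 and 37.3 FPKM after 6 h at 26 °C and 116, 54 and 149.8 FPKM in controls. All 30 °C animals lay above all others, and neither test passed (log2 change 2.28, SE 0.72, adjusted p = 0.254 against control, log2 change 2.69, SE 0.72, adjusted p = 0.153 against 26 °C at 6 h). Its relative SMOC1 (BSL78_05999), a calcium-binding matrix protein, held no read after 6 h at 26 °C and stood at 4.05, 4.11 and 4.49 FPKM in controls. With a floor of 3 reads per library it was at least 2.4-fold lower at 26 °C at 6 h, and limma gave log2 change -2.38, SE 0.64, adjusted p = 0.295. At 30 °C 1 animal reached 4.12 FPKM and the other 2 held no read.

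Fibronectin type III domains occur in many proteins, so this class is loosely defined. The 2 models described as fibronectin itself lay side by side, and the higher, BSL78_29746, stood at 168, 85.3 and 174 FPKM at 30 °C, 188, 146 and 126 FPKM after 48 h, 641, 91.9 and 50.9 FPKM after 6 h at 26 °C and 197, 82.1 and 58.8 FPKM in controls. The groups overlapped in the FPKM as deposited, and 26 °C 6 h animal 1 was the highest of all. With a common sum per library all 30 °C animals lay below all controls and all 48 h animals above them. BSL78_08113, a fibronectin type 3 and ankyrin repeat protein rather than a matrix protein, stood at 0.617, 0 and 0.756 FPKM at 30 °C and 4.27, 3.65 and 3.32 FPKM in controls. It was low in all 30 °C animals, on 1, 0 and 1 reads (log2 change -1.74, SE 0.55, adjusted p = 0.253).

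Thrombospondins are secreted glycoproteins that bind matrix and growth factors. Of the 8 tested, 4 were higher at 30 °C than in controls, 3 after 48 h and 4 after 6 h at 26 °C. These were all among the 6 that are named for a thrombospondin type-1 domain. The 2 thrombospondins proper were both lower than controls in each heated group, with median log2 changes of -0.42, -1.49 and -1.24. With a common sum per library the counts for all 8 were 1, 3 and 3. Thrombospondin-1 BSL78_06904 stood at 2.28, 9.73 and 7.4 FPKM after 48 h at 26 °C, 2.78, 6.5 and 3.92 FPKM after 6 h at 26 °C and 13, 9.98 and 19.3 FPKM in controls. All animals of both 26 °C groups lay below all controls, without passing (log2 change -1.49, SE 0.68, adjusted p = 0.614 after 6 h).

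Of the 3 enzymes and carriers, BSL78_01034 encodes a procollagen galactosyltransferase, which adds sugar to collagen chains. It stood at 16, 70.6 and 1.74 FPKM at 30 °C, 2.34, 2.5 and 6.46 FPKM after 48 h at 26 °C, 3.05, 1.72 and 20.3 FPKM after 6 h at 26 °C and 0.493, 0.351 and 0.75 FPKM in controls. Every heated animal was above every control, but the spread at 30 °C was wide (log2 change 3.30, SE 1.01, adjusted p = 0.238).

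By the rule for named models a further 7 were looked at for their rank in a comparison, and none passed. Collagen alpha-2(IX) BSL78_07652 and the ankyrin repeat and fibronectin type-III protein BSL78_17510 had all 26 °C 6 h animals below all controls. BSL78_07652 stood at 0, 0 and 0.573 FPKM after 6 h at 26 °C and 3.26, 1.55 and 1.62 FPKM in controls (log2 change -1.39, SE 0.57, adjusted p = 0.571). The thrombospondin BSL78_19339 stood at 0, 0 and 0.172 FPKM after 48 h at 26 °C and 12.6, 0 and 2.97 FPKM in controls. The fibropellin-1-like BSL78_05456 stood at 0, 0 and 0.159 FPKM after 48 h and 0.587, 6.1 and 0.159 FPKM in controls, and in both models 2 controls lay above all 48 h animals. The somatomedin-B and thrombospondin type-1 domain protein BSL78_13735, the highest of its class, stood at 11.4, 3.14 and 5.84 FPKM at 30 °C and 8.18, 13.9 and 42.3 FPKM after 6 h at 26 °C (log2 change -1.35, SE 0.76, adjusted p = 0.518). With a common sum per library its 30 °C animals lay below all 26 °C 6 h animals and all controls. Alpha-1 collagen BSL78_17629 and fibrillin-1 BSL78_24417 were lower after 48 h than after 6 h at 26 °C by fitted values of -1.35 and -1.45 (adjusted p = 0.771 and 0.748).

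**Figure D4:**
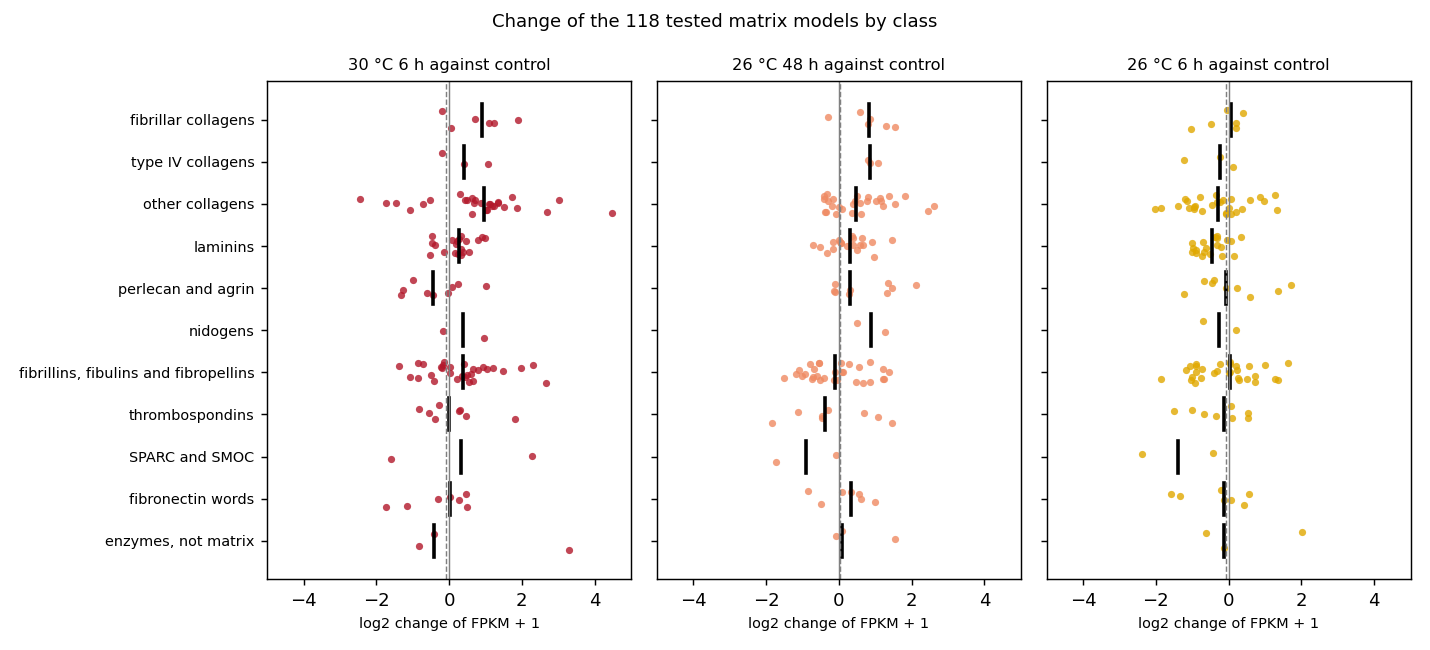
Log2 change of FPKM + 1 against control for each of the 118 tested matrix models by class, for 30 °C, for 26 °C after 48 h and for 26 °C after 6 h. Points are models, black bars the class median, the grey line 0 and the dashed line the median of all tested genes; laminins lie mostly to the left of 0 after 6 h at 26 °C.

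Across the set, 77 of 118 tested models were higher at 30 °C than in controls, 73 at 48 h and 46 at 6 h of 26 °C. The median log2 changes were 0.32, 0.30 and -0.24, where the medians over all genes were -0.07, 0.031 and -0.08. At 30 °C 85 were higher than at 26 °C at 6 h (median 0.61, all genes 0), and at 48 h 90 were higher than at 6 h (median 0.54, all genes 0.12). These comparisons share control or 26 °C 6 h animals and are not independent. With a common sum per library the median of all genes at 30 °C against control was -0.85 and that of the models -0.54, so the sign at 30 °C turns with the scaling. In that scaling 74 of 118 lay above the median of all genes, and 78 in the FPKM as deposited. At 30 °C against 26 °C at 6 h it gave 65 above 0 and 52 below, with a median of 0.076 where that of all genes was -0.52. At 48 h against control and against 6 h it gave 81 and 97 above 0.

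Counted by animals, 14 of the 118 had all 30 °C animals above all controls (6.28% of all genes) and 3 had all below (7.98%). After 48 h it was 18 above (5.84%) and 3 below (4.85%), and after 6 h at 26 °C it was 3 above (4.81%) and 14 below (7.15%). Between 30 °C and 26 °C at 6 h, 17 lay above (7.01%) and 3 below (5.88%), and between 48 h and 6 h at 26 °C, 16 lay above (7.87%) and 3 below (4.76%).

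These separations also turn on the scaling. With a common sum per library, 5 of the 118 had all 30 °C animals above all controls (1.49% of all genes) and 15 had all below (24%). After 48 h it was 12 above (5.17%) and 3 below (2.26%), and after 6 h at 26 °C it was 3 above (2.43%) and 14 below (7.65%). Between 30 °C and 26 °C at 6 h, 5 lay above (2.19%) and 6 below (16.5%), and between 48 h and 6 h at 26 °C, 23 lay above (10.6%) and 1 below (1.85%). In that scaling the 30 °C animals lay above all controls in BSL78_01278, BSL78_02383, BSL78_03902 and BSL78_20944, and overlapped them in BSL78_05260, BSL78_06718 and BSL78_01034. BSL78_11836 kept its 48 h animals above the 26 °C 6 h animals but not above the controls, and BSL78_11834 the reverse. BSL78_17847 overlapped in all 5 comparisons, and BSL78_17848 kept every separation given above. The 26 °C 6 h animals of BSL78_17628 and BSL78_20847 and the 48 h animals of BSL78_06904 and BSL78_20944 then overlapped the controls. BSL78_02383 and BSL78_06718 then overlapped between 30 °C and 26 °C at 6 h. Only in that scaling did the 48 h animals of BSL78_01278 and BSL78_29746 lie above all controls.

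Smooth muscle lies in the gut wall beside its connective tissue, and muscle genes leaned the same way in some comparisons. Of 40 tested models for myosin heavy chain, troponin, tropomyosin, calponin, titin and their like, 36 were lower after 6 h at 26 °C than in controls (median -0.73). At 30 °C 35 of 40 were higher than at 26 °C at 6 h (median 0.77), and at 48 h 36 were higher than at 6 h (median 0.66). With a common sum per library, 36 of 40 were again lower after 6 h at 26 °C than in controls and 37 higher at 48 h than at 6 h. At 30 °C against 26 °C at 6 h 19 were then above 0 and 21 below (median -0.014). The 58 muscle models took 0.106% to 0.337% of the reads at 30 °C, 0.283% to 0.794% after 48 h at 26 °C, 0.157% to 0.255% after 6 h at 26 °C and 0.299% to 0.399% in controls. At 30 °C against control 19 of 40 were higher (4 of 40 with a common sum), where the median of the matrix models was 0.32 (-0.54 with a common sum). None passed the test, and the part of muscle tissue in the matrix values was not tested.

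Other cell types were counted by their markers in the same way. Coelomocyte genes, for the immune cells of the body fluid, were lower after 6 h at 26 °C in 19 of 25 tested models, and higher at 30 °C than at 26 °C at 6 h in 21. These were 21 and 17 with a common sum per library. Neuron markers were higher at 30 °C than in controls in 35 of 47, and in 24 of 47 with a common sum. Germ line words, 12 models that include the yolk proteins, took 8.83% to 20.2% of the reads at 30 °C, 5.19% to 17.4% after 48 h, 17.2% to 30.1% after 6 h at 26 °C and 10.4% to 29.5% in controls. The yolk proteins were not split from the rest of that list, so these shares do not measure germ cells. No coelomocyte, neuron or germ line model passed the test, and their part in the matrix values was not tested.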

How the data were processed

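Total RNA came from individual animals and libraries of its messenger RNA were run on an Illumina HiSeq, per the labels' protocols. The authors deposited FPKM per gene model, with description, scaffold, start, end, strand and length, per the file headers. Aligner, counter and genome build: not given in the sources used here. Positions are on the deposited scaffolds. The reference gene table matched 0 identifiers and was not used, and no sequence is printed.

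The reads quoted were recovered from FPKM times length, which came in whole steps in each library (100% of values, within 0.05 of a step). Read floors are 3 reads per library, and floors and counts cover counting error only. The 18729 genes averaging 0.5 FPKM or more were fitted on log2(FPKM + 1) by limma 3.58.1 (R 4.3.3), with a mean per group for all 12 libraries, 8 residual and 5.652 prior degrees of freedom, and Benjamini-Hochberg adjustment at 0.05. Such log2 changes understate low genes. The fit was tested on simulated data, with large changes set in abundant genes only. The tested matrix models had a median of 2.73 FPKM, so that simulation does not show what the fit can find in them. Tests are two-sided. The labels give 3 animals per group.

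The members and lists were chosen with earlier results of these data known. Named are models past the threshold, BSL78_17848, the highest of each class and the 3 most positive and 3 most negative per comparison. Others shown as neighbours or examples, such as BSL78_17847, BSL78_02388 and BSL78_06904, were chosen after their values were seen. Lists were made from words in the descriptions: collagen processing, proteases and inhibitors, cell-side partners, tenascin and fibrinogen-domain genes, and markers of muscle, neurons, digestive epithelium, germ line and coelomocytes. SMOC1 was classed with SPARC although its description names calcium binding, and integrin and trypsin words left out disintegrins and inhibitors.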

Additional observations from a re-analysis of the deposited data

Results flagged for a closer look

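BSL78_17848, the perlecan model, was tested between the 30 °C and the 26 °C animals at 6 h, and the 2 heat groups differed from each other by a log2 change of -3.04 (limma, adjusted p = 0.0419). Against control, the 30 °C animals were lower by a fitted -1.33 and the 26 °C animals higher by 1.71, neither passing the test. It holds no read in any 30 °C library and 29 reads at 26 °C. A check of groups of 3 for single outlying animals was not made, since 3 animals are too few.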

How the results depend on the processing

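Of 31 changes of named models recomputed under up to 24 settings, 696 values came out. Of these, 666 kept their direction and side of the threshold, 17 lost a call, 9 gained one and 4 turned direction. The 17 losses all concern BSL78_17848 between 30 °C and 26 °C at 6 h. Its log2 change and adjusted p were -3.25 and 0.143 with a common FPKM sum per library, -2.98 and 0.058 with quantile normalization, and -3.03 and 0.0535 with array weights. They were -3.62 and 0.139 with voom on recovered reads, -3.04 and 0.345 with only the groups compared, and -2.72 and 0.111 without both libraries with the fewest genes detected. Leaving out 1 library gave -3.46 to -2.72 (adjusted p 0.0309 to 0.142). The mean filter of 5 FPKM removed it. Against control at 30 °C a pseudocount of 0.1 brought it to -3.96 (adjusted p = 0.0418). Between 48 h and 6 h at 26 °C its -0.26 ranged from -0.68 to 0.058 when 1 library was left out. It became 0.16 with a common sum, 0.19 with genes detected as a covariate, and 0.058 without both libraries or without 26 °C 6 h animal 1. The cause was not tested.

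Calls among the 118 matrix models moved as follows. At 30 °C against control, 0 risen became 1 with array weights or voom and 2 without both libraries, and 0 fallen became 1 with a pseudocount of 0.1. Between 30 °C and 26 °C, 0 risen became 1 with array weights or without both libraries. There, 1 fallen became 0 with the 5 FPKM filter, common sum, quantile normalization, array weights, voom, only the groups compared or without both libraries. The F test's 1 became 0 with the 5 FPKM filter, common sum, quantile normalization or voom and 2 with array weights. Leaving out 1 library gave 0 to 2 risen at 30 °C against control, 0 to 1 risen and 0 to 1 fallen against 26 °C, and 0 to 1 in the F test.

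Over all genes, the 110 risen at 30 °C against control became 71 with no filter, 37 with a common sum, 9 with only the groups compared and 230 without both libraries. The 12 fallen became 28 with a pseudocount of 0.1, 23 with a common sum, 25 with array weights, 0 with only the groups compared and 33 without both libraries. After 6 h at 26 °C the 9 risen became 4 with a pseudocount of 0.1, no filter or a common sum. They became 18 with the 5 FPKM filter, 16 with array weights or voom, 35 with the covariate, 0 with only the groups compared and 34 without both libraries. The 3 fallen became 7 with the 5 FPKM filter, 0 with the covariate or only the groups compared and 6 without both libraries. After 48 h the 0 risen became 1 with a common sum. Between 30 °C and 26 °C the 37 risen became 14 with no filter, 0 with a common sum or only the groups compared, 23 with quantile normalization, 7 with voom and 73 without both libraries. The 9 fallen became 1 with a common sum or voom and 0 with only the groups compared. Between 48 h and 6 h the 0 risen became 3 with a pseudocount of 0.1 and 1 with a common sum. The 2 fallen became 1 with a pseudocount of 0.1, quantile normalization or the covariate and 0 with only the groups compared.

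Leaving out 1 library gave, over all genes, 34 to 227 risen and 2 to 18 fallen at 30 °C against control, 3 to 26 and 0 to 4 after 6 h at 26 °C, and 0 to 1 each after 48 h. It gave 0 to 131 and 1 to 15 between 30 °C and 26 °C, and 0 to 2 and 1 to 4 between 48 h and 6 h. As a share of the FPKM sum the matrix models took 0.895% after 48 h and 0.415% in controls.

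The animal numbers in the titles did not pair the animals (same-number correlations -0.18 to 0.146, median 0.016, over 18 pairs). With the replicate block, BSL78_17848 came to -3.04 with an adjusted p of 0.0755, the matrix models fallen between 30 °C and 26 °C to 0 and those in the F test to 0. Under that block all genes gave 3 risen and 0 fallen after 6 h at 26 °C, 1 risen after 48 h, 14 risen and 3 fallen between 30 °C and 26 °C, and 1 fallen between 48 h and 6 h. The 2 count tests planned on recovered reads were not run, because the deposited unit is FPKM; voom and the fit without both libraries were chosen after seeing the data. Low read numbers, under 100 over 12 libraries for 44 of 118 models, limit these tests.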

Other observations

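Some genes around the matrix rose at 30 °C against control, a comparison in which 0.587% of all genes rose and 0.0641% fell. Metalloproteinase inhibitors hold back the enzymes that cut matrix, and the inhibitor 1-like BSL78_28150 stood at 90.8, 154 and 141 FPKM at 30 °C and 17.6, 17.8 and 18.1 FPKM in controls, with no overlap (limma, log2 change 2.75, SE 0.54, adjusted p = 0.034). Its 26 °C animals also lay above all controls, without passing the test. They stood at 95.2, 104 and 36.1 FPKM after 48 h and 59.8, 80.4 and 72.3 FPKM after 6 h. ADAMTS-like protein 2, BSL78_17703, which binds microfibrils and has no protease domain in vertebrates, stood at 11.5, 13.1 and 12.8 FPKM at 30 °C, 1.5, 0 and 0.239 FPKM after 6 h at 26 °C and 0.725, 0.644 and 1.47 FPKM in controls. It rose at 30 °C against control (log2 change 2.82, SE 0.51, adjusted p = 0.023) and against 26 °C at 6 h (log2 change 3.21, SE 0.51, adjusted p = 0.0316). Of 33 tested proteases and inhibitors, these 2 rose and 0 fell at 30 °C against control, and 22 were higher. With a common sum per library 0 rose and 19 were above 0.

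Tenascins and fibrinogen-domain proteins, among them lectins of echinoderm immunity, were counted apart from the scaffold. Of 148 tested, 2 rose and 0 fell at 30 °C against control and 119 were higher, with a median log2 change of 1.09 where that of all genes was -0.07. The 2 calls are 1.35% of the list, against 0.587% of all genes, and this difference was not tested. Rescaled to a common sum per library, 0 rose and the median was 0.36, where that of all genes was -0.85. Fibrinogen-like protein A BSL78_11200 stood at 8.6, 19.5 and 22.8 FPKM at 30 °C and 0, 0.706 and 0 FPKM in controls (log2 change 3.81, SE 0.68, adjusted p = 0.0198), and its namesake BSL78_20932 at 126, 194 and 65.1 FPKM at 30 °C and 0.466, 0.331 and 1.57 FPKM in controls (log2 change 6.11, SE 1.20, adjusted p = 0.035). The tenascin model BSL78_03162 stood at 162, 47.9 and 208 FPKM at 30 °C and 5.84, 0 and 2.1 FPKM at 26 °C at 6 h, and differed between them (log2 change 5.42, SE 0.85, adjusted p = 0.0316). Its controls, at 34, 11.3 and 15.4 FPKM, lay below all 30 °C animals and above all 26 °C 6 h animals. Neither group passed the test against control. The fibrinogen-like BSL78_22466 was called in the F test alone (adjusted p = 0.0182), and among 96 digestive markers alpha-amylase BSL78_20389 rose at 30 °C (log2 change 5.12, SE 0.79, adjusted p = 0.00742). None of 10 collagen-processing enzymes and 41 cell-side partners such as integrins passed in any comparison.

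Neighbouring matrix models often leaned the same way. Of 24 neighbouring pairs with both models tested, 18 had changes of equal sign at 30 °C against control (75%), where 55.8% of 12571 neighbouring pairs of all genes did. Models that share a description can be pieces of 1 gene, so the pairs are not independent.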
